A study of Homo sapiens with 12 samples.

Results

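The 10 genes described here are the catalytic subunits of the collagen prolyl 4-hydroxylases (P4HA1, P4HA2, P4HA3), the lysyl hydroxylases (PLOD1, PLOD2, PLOD3), a prolyl 3-hydroxylase (P3H1) and 3 lysyl oxidases (LOX, LOXL1, LOXL2). They were chosen by name from the 60666 genes listed in each library, with earlier results of these data known. Counts of calls among them are thus not independent of that choice. Collagen is modified in the endoplasmic reticulum and crosslinked outside the cell. Prolyl 4-hydroxylases hydroxylate prolines and thereby stabilise the triple helix, lysyl hydroxylases modify lysines that later take part in crosslinks, and both families use oxygen, iron and 2-oxoglutarate, as do the prolyl hydroxylases that mark HIF for degradation. Lysyl oxidases are secreted copper enzymes that oxidise lysines of collagen and elastin so that crosslinks can form, and several genes of these families are known hypoxia response genes.

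Transcripts were measured in Huh7 cells, a human hepatoma line, exposed for 24 h or 48 h either to Molidustat at 25 µM, an inhibitor of the HIF prolyl hydroxylases, or to the solvent DMSO alone. Each of the 4 groups had 3 libraries, and all cells were grown in the same high-glucose medium with serum. Libraries were made from the 3′ ends of transcripts and held between 1499273 and 9179389 counts on genes. The study's methods call the 3 libraries of a group biological replicates without saying whether they come from separate cultures or days, so p-values measure the spread between these libraries, which may be technical in part. A change in RNA per cell and a change in the share of cells that hold it cannot be told apart in such bulk samples. All 10 hepatocyte markers had counts in every library, led by AFP at 3908 to 10320 CPM (a gene's counts relative to the library's total, scaled by TMM).

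One control library stood apart from the rest. DMSO 48 h replicate 2 was the shallowest library, with 1499273 counts on genes. Reads outside annotated genes made up 50.4% of its listed reads, against 17.1 to 25.6% in the 11 others. Its correlation with the other libraries on log2 CPM was 0.71 to 0.78. Since all libraries share one estimate of the spread, the calls among the 10 genes at both times are given with and without it.

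In Molidustat-treated cells, LOX was upregulated 4.19-fold at 24 h and 4.08-fold at 48 h, P4HA1 4.38-fold at 24 h and P4HA2 3.96-fold at 48 h. These 4 values passed the thresholds. P4HA1 at 48 h (2.37-fold) and P4HA2 at 24 h (3.69-fold) did not. PLOD2 lay above its controls by 3.70-fold at 24 h and 3.52-fold at 48 h with all libraries, but did not pass. The 48 h value rested in part on DMSO 48 h replicate 2, at 18.1 CPM from 17 counts. Without that library the log2 fold change of PLOD2 was 1.897 at 24 h and 1.35 at 48 h. PLOD1, PLOD3, P3H1 and LOXL2 passed at neither time, and P4HA3 and LOXL1 had too few counts to test, so that 8 of the 10 genes passed the filter on low counts. Thus 2 of the 8 tested genes were called higher at 24 h, where 0.231% of all 14274 tested genes were, and 2 at 48 h, against 0.21%. None was called lower, against 0.0% of all tested genes at 24 h and 0.021% at 48 h. A gene was called when its adjusted p (edgeR quasi-likelihood test, Benjamini-Hochberg over all tested genes) was under 0.05 and its log2 fold change was beyond 1 in either direction. The median log2 fold change of the 8 genes was 1.88 at 24 h and 1.20 at 48 h, beside 0.02 and 0.01 over all tested genes. Without DMSO 48 h replicate 2 the medians of the 8 genes were 1.89 and 1.10. These medians include LOXL2, which was tested only because of its Molidustat libraries, so a higher value was built into that member. The 10 genes summed to 260 to 357 CPM in the DMSO libraries at 24 h and 825 to 907 CPM in the Molidustat libraries, and to 216 to 350 and 740 to 976 CPM at 48 h, without overlap at either time. PLOD2, which did not pass, was the most abundant of them. Its means were 101 CPM in DMSO and 373 CPM in Molidustat libraries at 24 h, and 89.1 and 320 CPM at 48 h.

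**Figure D1:**
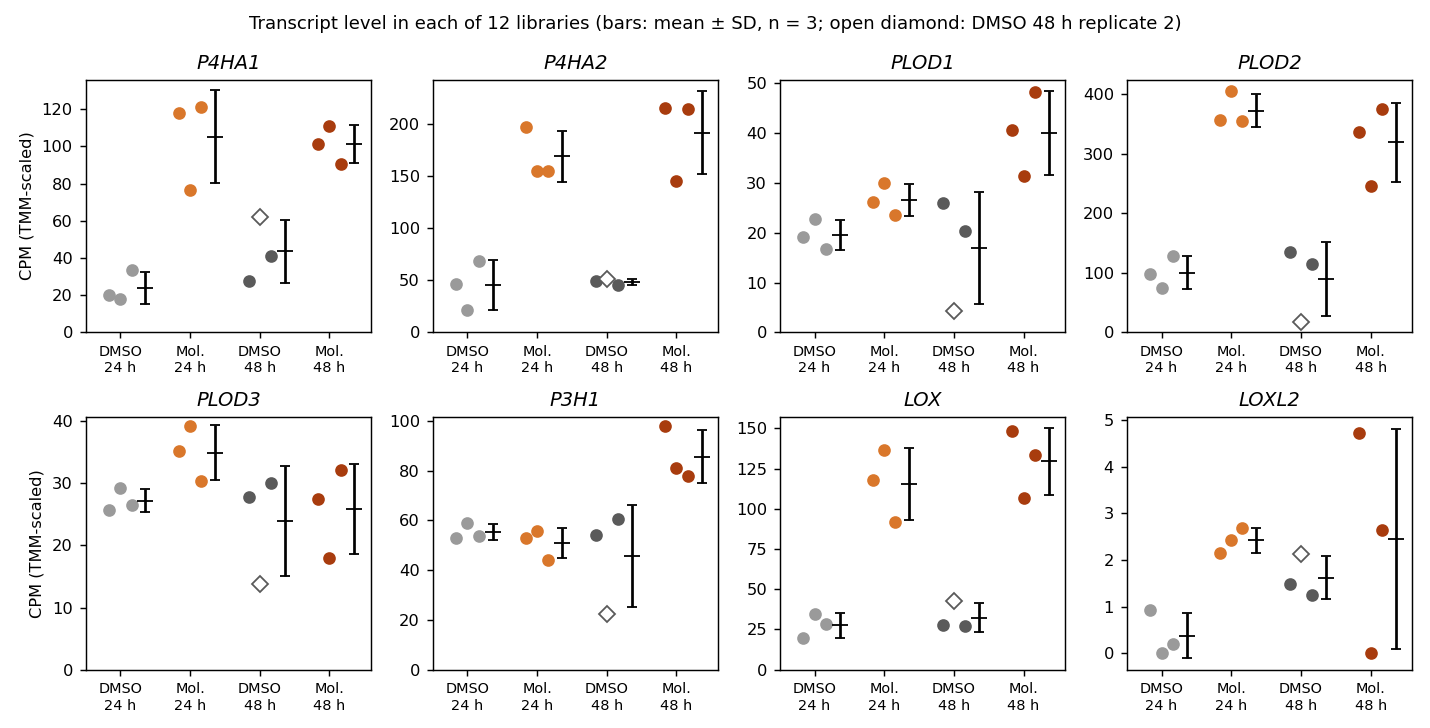
Transcript levels of the 8 tested genes (y axis, TMM-scaled CPM) in each of the 12 libraries (points) by group (x axis), with the mean ± SD of 3 libraries beside them and DMSO 48 h replicate 2 as an open diamond. P4HA1, P4HA2, PLOD2 and LOX lie higher in all Molidustat libraries than in any DMSO library of the same time, whereas PLOD3 and LOXL2 overlap at 48 h and P3H1 at 24 h.

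The letters to which HIF binds were looked for in the promoters, because several of these genes are known hypoxia response genes. Promoter windows of 300 bases, from 250 before to 50 after each RefSeq start site on GRCh38.p14, were held for 8 of the 10 genes (not P4HA3 or LOXL2). The letters searched were ACGTG and GCGTG on both strands, which read CACGT and CACGC on the reverse strand and overlap each other in CACGTG. They stood in 48.4% of all 35116 windows, so a match is common. PLOD1 had 2 matches, PLOD2 3, P4HA1 and P3H1 1 each, and P4HA2, PLOD3 and LOXL1 none. LOX has 3 listed windows, with 4 matches in the first and 2 in each of the others, which overlap and hold the same 2 sites. Stretches around matches before the start site follow for P4HA1, PLOD2 and 2 of the 4 matches of LOX, while those of PLOD1, P3H1 and the other LOX matches are not shown, in the direction of transcription (minus strand for all 3), with the searched letters in capitals.
P4HA1, chr10:73096936-73096964: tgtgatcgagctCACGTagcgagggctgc
PLOD2, chr3:146161374-146161403: agcgctGCGTGagcctccaCACGTagccgc
PLOD2, chr3:146161314-146161342: caaacagtccagACGTGgggcccaggagg
LOX, chr5:122078428-122078456: gctccctgtgcaACGTGtctggggggagg
LOX, chr5:122078285-122078313: gtaactttgcaaACGTGccagaaagttta
Except for the first LOX stretch, these stretches overlap an exon that GENCODE annotates for the same gene. Binding of HIF was not measured in these libraries.

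P4HA1 (ENSG00000122884, chromosome 10, 73007217 to 73096974) encodes a catalytic subunit of collagen prolyl 4-hydroxylase. At 24 h its level was 19.98, 18.1 and 33.5 CPM in the DMSO libraries and 118, 76.6 and 121 CPM in the Molidustat libraries. Every Molidustat library was more than double the highest DMSO library. The log2 fold change was 2.13 (standard error, SE, of 0.37, 4.38-fold, adjusted p = 0.0163 by edgeR). At 48 h, DMSO libraries held 27.8, 61.8 and 41.1 CPM and Molidustat libraries 101, 111 and 90.8 CPM. The groups again did not overlap, but the control level was higher and the log2 fold change was 1.24 (SE 0.36, adjusted p = 0.203 by edgeR), which did not pass. The highest of these controls was DMSO 48 h replicate 2, and without it the 48 h value was 1.54 (adjusted p = 0.0661). The call at 24 h was lost when DMSO 24 h replicate 1 (adjusted p = 0.162), DMSO 24 h replicate 2 (0.152), Molidustat 24 h replicate 1 (0.0676) or Molidustat 24 h replicate 3 (0.0665) was left out.

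P4HA2 (ENSG00000072682, chromosome 5, 132190147 to 132295315) encodes the second such subunit. DMSO libraries at 24 h held 46.9, 21.2 and 68.6 CPM and Molidustat libraries 197, 155 and 155 CPM. The controls spread over 3-fold among themselves, and all stayed below the treated libraries. The log2 fold change was 1.88 (SE 0.37, 3.69-fold), and the adjusted p of 0.0564 by edgeR lay just above the threshold. By 48 h the controls were close together at 49.3, 51.1 and 45.2 CPM, and the Molidustat libraries held 216, 145 and 214 CPM. The log2 fold change there was 1.99 (SE 0.38, 3.96-fold, adjusted p = 0.0415 by edgeR), past the threshold. Leaving out DMSO 48 h replicate 2 brought the 24 h comparison past it as well (log2 fold change 1.88, adjusted p = 0.00636 by edgeR), as did leaving out DMSO 24 h replicate 3, the highest control. The 48 h call was kept in 5 of 12 fits that each left out 1 library. It was lost without DMSO 24 h replicate 1 or any single Molidustat library of either time, with adjusted p from 0.0622 to 0.201, and also when the 48 h libraries were fitted alone (0.108) or all libraries were thinned to the depth of the smallest (0.0823). A replicate block lost it too (0.0702), although replicate numbers did not pair the libraries. An antisense RNA, P4HA2-AS1, shares 548 exonic bases with it on the opposite strand and was listed with 0 to 7 counts.

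The third subunit, P4HA3 (ENSG00000149380, chromosome 11, 74235801 to 74311640), was nearly undetected. It had 22 counts in all, of which 11, 5 and 5 were in replicate 1 of DMSO 24 h, Molidustat 24 h and DMSO 48 h and 1 in Molidustat 48 h replicate 2. The other 8 libraries had none, and a count of 0 allows up to 3 counts in a library. It did not pass the filter on low counts, and no fold change is given.

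P3H1 (ENSG00000117385, chromosome 1, 42746335 to 42767084) encodes prolyl 3-hydroxylase 1, which modifies single prolines of fibrillar collagens in a complex with CRTAP and cyclophilin B (PPIB). At 24 h DMSO libraries held 53.1, 58.9 and 53.7 CPM and Molidustat libraries 53.1, 55.6 and 44.03 CPM. These overlapped, and the log2 fold change of -0.12 had a 95% confidence interval from -0.83 to 0.60. At 48 h the values were 54.2, 22.4 and 60.7 CPM in DMSO and 97.7, 81.1 and 78.0 CPM in Molidustat libraries. All treated libraries were above all controls, but the log2 fold change of 0.87 (SE 0.34, adjusted p = 0.274 by edgeR) did not pass. It was 0.56 without DMSO 48 h replicate 2, the library with the low value.

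Among the lysyl hydroxylases, PLOD2 (ENSG00000152952, chromosome 3, 146035139 to 146163725) had the largest log2 fold changes. Its product, lysyl hydroxylase 2, acts on the telopeptides of collagen, where it sets the type of crosslink. DMSO libraries at 24 h held 98.3, 74.7 and 129 CPM and Molidustat libraries 357, 405 and 356 CPM. The lowest treated library was over 2.5 times the highest control. The log2 fold change was 1.89 (SE 0.50, 3.70-fold), with an adjusted p of 0.257 by edgeR. At 48 h the levels were 135, 18.1 and 114 CPM in DMSO and 337, 246 and 376 CPM in Molidustat libraries. The lowest of these, 18.1 CPM from 17 counts, was DMSO 48 h replicate 2. The log2 fold change was 1.82 (SE 0.50, 3.52-fold, adjusted p = 0.191 by edgeR). Without that library, PLOD2 passed at 24 h (log2 fold change 1.897, adjusted p = 0.000398 by edgeR) and lay at the threshold at 48 h (1.35, adjusted p = 0.0515). DESeq2 called it at both times with all 12 libraries (adjusted p = 0.0117 and 0.0134). Limma-voom with sample quality weights did too (0.00358 and 0.00293), as did edgeR with no filter on low counts (0.0018 and 0.0012). By edgeR it passed at neither time with RLE factors (0.222 and 0.186) or total counts (0.46 and 0.261). At least 10 counts in every library (0.2475 and 0.163) or the replicate block (0.228 and 0.193) gave no call either. Nor did thinning (0.236 and 0.102). With each time point alone it passed at 24 h (0.00467) but not at 48 h (0.515).

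PLOD1 (ENSG00000083444, chromosome 1, 11934205 to 11975538) encodes lysyl hydroxylase 1, which acts mainly on lysines of the helix. In DMSO libraries at 24 h it was at 19.1, 22.7 and 16.7 CPM, and in Molidustat libraries at 26.2, 29.9 and 23.5 CPM. The groups were separate but close, and the log2 fold change was 0.45 (95% confidence interval from -0.51 to 1.40). For 48 h the values were 26.0, 4.26 and 20.4 CPM in DMSO and 40.7, 31.3 and 48.1 CPM in Molidustat libraries. The log2 fold change of 1.16 (SE 0.45, adjusted p = 0.274 by edgeR) did not pass and was 0.78 without DMSO 48 h replicate 2, whose 4.26 CPM came from 4 counts.

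PLOD3 (ENSG00000106397, chromosome 7, 101205977 to 101218420) encodes an enzyme that also acts as a glycosyltransferase on hydroxylysine. It was at 25.7, 29.3 and 26.4 CPM in DMSO and 35.1, 39.2 and 30.4 CPM in Molidustat libraries at 24 h. At 48 h DMSO libraries held 27.8, 13.8 and 30.1 CPM and Molidustat libraries 27.4, 18.0 and 32.1 CPM. The groups were narrowly separate at 24 h and overlapped at 48 h. The log2 fold changes were 0.36 (95% confidence interval from -0.40 to 1.13) and 0.08 (from -0.69 to 0.85), and the latter was -0.17 without DMSO 48 h replicate 2. The 24 h interval does not exclude a doubling. ZNHIT1 shares 102 exonic bases with PLOD3 on the opposite strand and had 208 to 2767 counts per library.

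LOX (ENSG00000113083, chromosome 5, 122063195 to 122078413), the founding lysyl oxidase, was called at both times. DMSO libraries held 19.5, 34.7 and 28.7 CPM at 24 h and 27.8, 42.6 and 26.9 CPM at 48 h. In Molidustat libraries it was at 118, 137 and 91.7 CPM at 24 h and 148, 107 and 133 CPM at 48 h. The lowest treated library exceeded the highest control of its time by over 2.5-fold at 24 h and 48 h. Fold changes were 4.19-fold at 24 h (adjusted p = 0.00775 by edgeR) and 4.08-fold at 48 h (adjusted p = 0.013). Without DMSO 48 h replicate 2 they were 2.08 and 2.23 on the log2 scale, with adjusted p of 0.000398 and 0.00168 by edgeR. The 24 h call was lost without DMSO 24 h replicate 1 (adjusted p = 0.101) or replicate 3 (0.0623), and the 48 h call without Molidustat 48 h replicate 1 (0.075) or replicate 3 (0.0711) or when the 48 h libraries were fitted alone (0.158). SRFBP1, on the opposite strand, shares 138 exonic bases with LOX and had 23 to 404 counts per library, and the strand setting of the counting is not given in the sources used here.

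LOXL2 (ENSG00000134013, chromosome 8, 23296897 to 23425328), a paralog that acts on collagen IV among other substrates, was expressed near the detection limit. It had 4, 0 and 1 counts in DMSO and 6, 20 and 14 counts in Molidustat libraries at 24 h, or 0.919, 0.00 and 0.207 CPM against 2.15, 2.43 and 2.69 CPM. At 48 h it had 11, 2 and 12 counts in DMSO (1.49, 2.13 and 1.24 CPM) and 21, 0 and 14 counts in Molidustat libraries (4.72, 0.00 and 2.63 CPM). The groups were separate at 24 h and overlapped at 48 h. It entered the tests through 4 Molidustat libraries above the filter's cutoff, with no DMSO library above it, so a higher value with treatment was built into its being tested. The log2 fold changes were 2.53 (SE 1.33, adjusted p = 0.992 by edgeR) and 0.69 (SE 1.24). The 24 h value was 4.04 without DMSO 24 h replicate 1, and the 48 h value was -0.15 without Molidustat 48 h replicate 1. LOXL2 shares 120 exonic bases with ENTPD4 on the same strand.

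LOXL1 (ENSG00000129038, chromosome 15, 73925989 to 73952137), a paralog needed for elastic fibres, was at 0 in all 6 DMSO libraries. Among Molidustat libraries it had 1 count in replicate 3 at 24 h and 4 counts in replicate 3 at 48 h. This is at the level that a count of 0 allows (3 counts) or just above it, and no fold change is given.

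**Figure D2:**
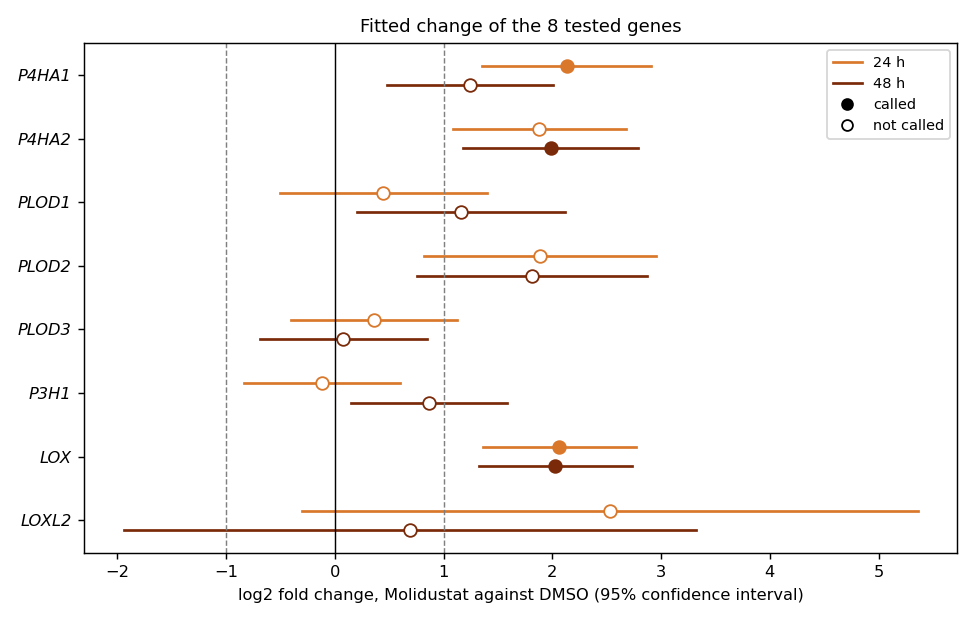
Log2 fold change of Molidustat against DMSO (x axis, with 95% confidence intervals) for the 8 tested genes (y axis) at 24 h and 48 h, with filled points for calls and dashed lines at a log2 fold change of 1 in either direction. LOX is filled at both times, P4HA1 at 24 h (2.13) and P4HA2 at 48 h (1.99), and the intervals of PLOD2 lie above 0 at both times.

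The lowest Molidustat library exceeded the highest DMSO library for 7 of the 8 tested genes at 24 h and 6 of 8 at 48 h. Over all tested genes this was so for 7.26% and 9.96%. The 7 include LOXL2, which was tested because of its Molidustat libraries. The exceptions were P3H1 at 24 h and PLOD3 and LOXL2 at 48 h. Refitting without DMSO 48 h replicate 2 gave 4 calls among the 8 genes at 24 h (P4HA1, P4HA2, PLOD2 and LOX), against 0.728% of all tested genes, and LOX and P4HA2 at 48 h, against 0.315%. None was lower in that fit, against 0.0328% of all tested genes at either time. DESeq2 on all libraries called the same 4 genes at 24 h, against 0.932%, and LOX, P4HA2 and PLOD2 at 48 h, against 1.22%. At an unadjusted p under 0.05 by edgeR, 4 of the 8 were higher at 24 h (3.73% of all tested genes) and 6 at 48 h (4.53%). Without DMSO 48 h replicate 2 the 48 h log2 fold changes of PLOD1, P3H1 and PLOD2 fell to 0.78, 0.56 and 1.35. Those of P4HA1, P4HA2 and LOX rose.

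**Figure D3:**
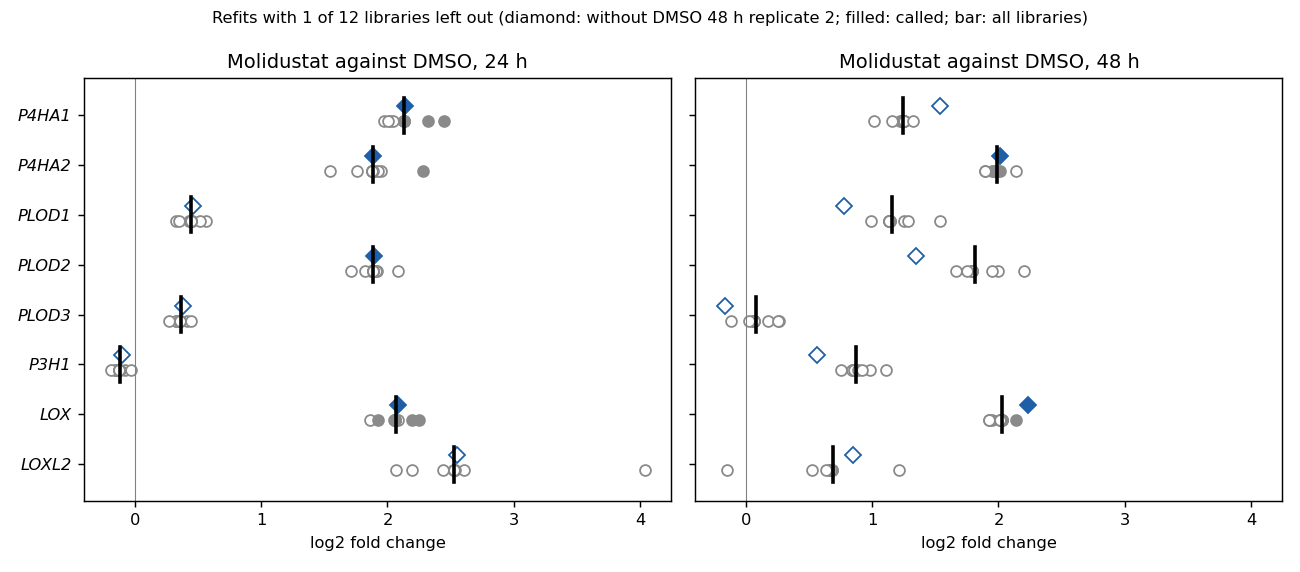
Log2 fold change (x axis) of each tested gene (y axis) in 12 fits that each left out 1 library, with filled symbols for calls, a bar for the fit with all libraries and diamonds for the fit without DMSO 48 h replicate 2. All values of P4HA1, P4HA2, PLOD2 and LOX lie above 1, and at 24 h the diamonds of these 4 genes are filled.

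Whether the response differed between 24 h and 48 h was tested as an interaction. None of the 8 genes passed this test (smallest adjusted p = 0.753 by edgeR, for P3H1), nor did any of the 14274 tested genes (0.0%), of which 1.18% had an unadjusted p under 0.05 toward a higher and 5.6% toward a lower value at 48 h. DESeq2 called 8 of all tested genes (0.056%) and none of the group. The log2 difference was 0.99 for P3H1 (95% confidence interval from -0.02 to 1.998) and -0.89 for P4HA1 (from -1.95 to 0.18). For LOX it was -0.04 (from -0.998 to 0.92), so a change of the response by up to about a doubling in either direction is not excluded. P4HA1 is thus called at 24 h only and P4HA2 at 48 h only without a shown difference between the times.

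Between 48 h and 24 h of culture, no gene of the group was called in DMSO libraries (0.0% of all tested genes higher, 0.00701% lower) or in Molidustat libraries (0.0% in both directions). At an unadjusted p under 0.05 by edgeR, P4HA1 was higher at 48 h in DMSO (log2 fold change 0.83, or 0.54 without DMSO 48 h replicate 2; 6.76% of all tested genes) and P3H1 was higher at 48 h in Molidustat libraries (0.75; 2.39%). Under Molidustat, the libraries at 48 h lay above all those at 24 h for P3H1 and PLOD1 (7.15% of all tested genes). In DMSO this held for LOXL2 (5.75%).

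P4HA1, P4HA2 and LOX varied together over the 12 libraries, with Pearson's r on log2 CPM of 0.90 for P4HA1 with P4HA2, 0.88 for P4HA1 with LOX and 0.89 for P4HA2 with LOX. PLOD2 correlated less with them, at 0.58, 0.79 and 0.71, but at 0.93, 0.97 and 0.93 over the 11 libraries without DMSO 48 h replicate 2. PLOD1 and P3H1 correlated at 0.91 over all libraries and at 0.73 without that one. These are descriptions over libraries that share groups and depth. The genes most like P4HA1 were C4orf3 (0.95), FUT11, a fucosyltransferase (0.95), and PDK1, the kinase that restrains pyruvate dehydrogenase (0.94). Most like P4HA2 were the unnamed gene ENSG00000279689 (0.98) and the secreted glycoprotein STC2 (0.97). LOX was most like the glycolytic enzyme PGK1 (0.97), TLCD3A (0.97) and the lactate exporter SLC16A3 (0.95).

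For comparison, 12 genes known to respond to HIF were listed, also with earlier results of these data known, and 11 were tested. The list held 5 calls at 24 h (0.231% of all tested genes) and 2 at 48 h (0.21%), all higher, with median log2 fold changes of 1.98 and 1.64. Without DMSO 48 h replicate 2 there were 8 calls at 24 h (0.728% of all tested genes) and 3 at 48 h (0.315%) among 12 tested. The medians of this list were then 2.24 and 1.63. BNIP3, a mitophagy receptor, and PGK1 were called at both times, on the log2 scale by 2.81 and 2.68 for BNIP3 and by 2.80 and 1.99 for PGK1. PDK1 (3.604), lactate dehydrogenase LDHA (2.48) and the glucose transporter SLC2A1 (1.98) were called at 24 h. The PDK1 value was 4.87 without DMSO 24 h replicate 3. BNIP3 held 103 to 196 CPM in DMSO libraries at 24 h and 975 to 1232 CPM with Molidustat. Both lists share the same control libraries.

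Partners of these enzymes were listed too, with chaperones, glycosyltransferases, propeptide proteases and the remaining family members. The 20 genes of this list also include P4HTM, a transmembrane prolyl hydroxylase. Of the 15 tested, none was called at either time by edgeR, and medians were 0.46 and 0.45. Without DMSO 48 h replicate 2 the medians over the 17 genes then tested were 0.43 and 0.57. At an unadjusted p under 0.05, 5 were higher at 24 h (3.73% of all tested genes), and at 48 h 3 were higher (4.53%) and 1 lower (8.81%). DESeq2 called 1 at 24 h (0.932% of all tested genes), the lysyl oxidase LOXL4 (log2 fold change 2.49, adjusted p = 0.0136). LOXL4 held 7.81, 4.62 and 16.9 CPM in DMSO and 30.5, 99.3 and 36.0 CPM in Molidustat libraries at 24 h. The edgeR log2 fold change was 2.48 (SE 0.65, adjusted p = 0.236), it was 1.75 without Molidustat 24 h replicate 2 and 3.11 without DMSO 24 h replicate 3, and it was called without DMSO 48 h replicate 2 (adjusted p = 0.0234).

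The most abundant partners did not pass. P4HB, protein disulfide isomerase and the β subunit that P4HA1 and P4HA2 need, held 178, 186 and 200 CPM in DMSO and 253, 574 and 205 CPM in Molidustat libraries at 24 h. All treated libraries were above the controls, by a log2 fold change of 0.87 (adjusted p = 0.872 by edgeR) at 24 h and 0.62 at 48 h. The 24 h value was 0.28 without Molidustat 24 h replicate 2, the library at 574 CPM. PPIB, the partner of P3H1, had 0.16 and 0.42, of which the latter was 0.13 without DMSO 48 h replicate 2. COLGALT1, which adds galactose to hydroxylysine, had 0.61 at 24 h and -2.01 at 48 h (adjusted p = 0.23 by edgeR). The latter rested on DMSO 48 h replicate 2, which held 1368 CPM against 139 and 154 CPM in the other controls, and was -0.12 without it. Leaving out Molidustat 24 h replicate 2 brought the 24 h values down to 0.26 for COLGALT1 and -0.07 for PPIB.

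Most genes of the substrates had too few counts to test. Of 41 genes for collagen chains and elastin, 12 were at 0 in every library, among them elastin (ELN), COL5A1 and COL6A2, and 13 could be tested. None was called at either time by edgeR or DESeq2, with medians of 0.23 at 24 h and 0.27 at 48 h, while 3 were higher at 24 h (3.73% of all tested genes) and 1 at 48 h (4.53%) at an unadjusted p under 0.05. Without DMSO 48 h replicate 2 the medians over the 14 genes then tested were 0.16 and 0.07. The 3 most abundant were COL5A2, COL18A1 and COL27A1, with mean levels of 133, 70.5 and 26.5 CPM over all libraries. COL5A2, a chain of fibrillar collagen V, changed on the log2 scale by 0.74 at the earlier and 0.82 at the later time without passing (adjusted p = 0.959 and 0.342 by edgeR). COL18A1, the source of endostatin, had 0.23 and 0.30. COL27A1 had 0.79 and -0.39. Without DMSO 48 h replicate 2 the 48 h values were 0.59 for COL5A2, 0.15 for COL18A1 and -0.01 for COL27A1. With 1 library left out in turn, the 24 h values ran from 0.28 (without Molidustat 24 h replicate 3) to 1.01 for COL5A2, from 0.07 (without DMSO 24 h replicate 3) to 0.48 (without DMSO 24 h replicate 1) for COL18A1 and from 0.51 (without DMSO 24 h replicate 1) to 1.03 for COL27A1.

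**Figure D4:**
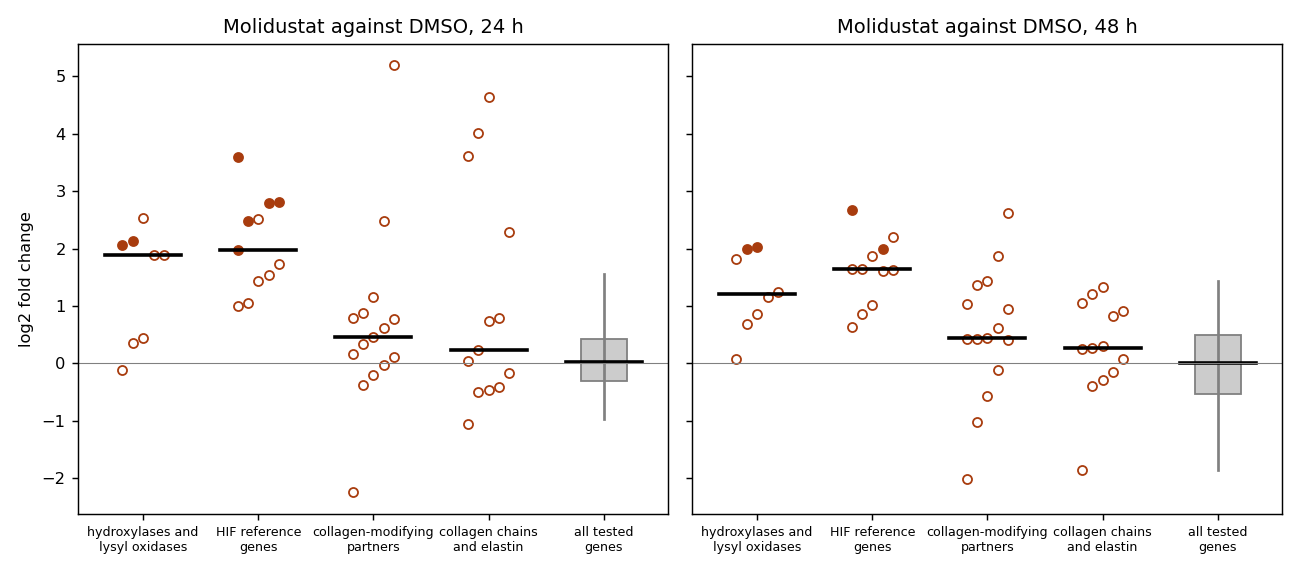
Log2 fold change of Molidustat against DMSO (y axis) at 24 h and 48 h for each tested gene (points) of the 4 lists (x axis), filled where called, with the median as a bar, beside the median, quartiles and 5th to 95th percentile (box and line) of all tested genes. The medians are 1.88 and 1.20 for the collagen hydroxylases and lysyl oxidases and 1.98 and 1.64 for the HIF reference genes. They lie above those of the partners and collagen chains (0.23 to 0.46). Without DMSO 48 h replicate 2 the medians were 1.89 and 1.10 for the first list and 2.24 and 1.63 for the HIF reference genes. Those of the partners were then 0.43 and 0.57, and those of the collagen chains 0.16 and 0.07. The first list includes LOXL2, which was tested only because of its Molidustat libraries.

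Since collagen-modifying enzymes are abundant in fibroblasts and stellate cells, markers of other cell types were read as well. Of 8 fibroblast and stellate cell markers, ACTA2 and THY1 were at 0 in every library, and the most abundant, LUM, reached 9.66 CPM. Their summed level was 1.86 to 8.27 CPM in DMSO and 2.87 to 7.88 CPM in Molidustat libraries at 24 h, and 2.13 to 7.59 and 14.6 to 22.3 CPM at 48 h. At 48 h all Molidustat libraries were above the controls for LUM (means of 1.32 CPM in DMSO and 7.01 CPM in Molidustat libraries) and COL1A2 (2.39 and 5.06 CPM). DCN (0.0 and 1.98 CPM), COL3A1 (1.56 and 2.07 CPM), PDGFRB (0.41 and 0.94 CPM) and COL1A1 (0.05 and 0.29 CPM) overlapped. The part of the fibroblast and stellate cell markers in the 48 h results was not tested. Endothelial markers TEK and VWF and leukocyte markers CD3E and CD79A were at 0 in every library, with PECAM1 and CD14, the most abundant of the 5 markers in each list, at no more than 6.45 and 10.3 CPM. Summed over their list, endothelial markers reached at most 6.45 CPM in any library. Leukocyte markers summed to 2.53 to 5.37 CPM in DMSO and 4.81 to 8.96 CPM in Molidustat libraries at 24 h, and to 2.13 to 5.37 and 9.66 to 14.7 CPM at 48 h. These sums did not overlap at 48 h, and of the 5 markers this held for CD14 alone, with means of 1.77 CPM in DMSO and 8.92 CPM in Molidustat libraries, whereas CD68 overlapped (2.22 and 2.62 CPM) and PTPRC, the general leukocyte marker, was at 0 in all Molidustat libraries at that time. The part of CD14 in the results was not tested. The 10 hepatocyte markers summed to 12980 to 16020 CPM in DMSO and 19330 to 23560 CPM in Molidustat libraries at 24 h, and to 9267 to 17400 and 24940 to 29730 CPM at 48 h. Not every marker rose. HNF4A had lower means with Molidustat at 24 h (368 and 312 CPM) and 48 h (506 and 137 CPM), and APOB at 48 h (1228 and 894 CPM). The 48 h controls of HNF4A included 1237 CPM in DMSO 48 h replicate 2. The other markers had higher means with Molidustat at both times. The part of these markers in the results was not tested.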

How the data were processed

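Total RNA of Huh7 cells was made into 3′ libraries (QIAseq UPX 3′ kit), and the authors deposited whole-number counts per gene without normalization, made with STAR 2.7.9a and HTSeq 0.11.2 on GRCh38 after cutadapt 1.9.1 per the submitters' processing notes. The annotation release, the strand setting and the use of molecular identifiers are not given in the sources used here, so counts may include PCR copies and limits from them cover counting error only. Of the 60666 genes listed, 60437 were named from GENCODE release 44. Library totals and tests leave out the 5 summary lines, and no column of values was left out.

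Libraries were grouped by their titles. Of 28430 genes with a count, 14274 passed filterByExpr at a count minimum of 10 and a total of 15. The quasi-likelihood test of edgeR 4.0.16 (R 4.3.3) with TMM scaling was fitted to all 12 libraries, with contrasts of treatment at each time, of time within each treatment and of their interaction, and Benjamini-Hochberg adjustment. Intervals are at 95%. The study's test, DESeq2 (1.42.0 here), and limma-voom with sample quality weights (limma 3.58.1) were tried. The latter changed the test and the weight of each library together. Other scalings and filters, separate times, a replicate block, thinning and leaving out each library were tried too. The steps were tested on simulated data.

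The 10 genes and the lists were chosen with earlier results of these data known. Named are all 10 genes, every called gene and the 3 most abundant of each list, and for each called gene of the 10 the 3 tested genes with the highest Pearson correlation on log2 CPM (prior count 2). One gene that this rule names is not reported here. Other genes named in the text were chosen after their values were seen. Replicate numbers did not pair the libraries. Of 18 same-number pairs, 3 had a correlation of deviations over 0.1 (range -0.0902 to 0.139). Figures were drawn with matplotlib 3.10.9 (Python 3.11.15).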

Additional observations from a re-analysis of the deposited data

Results flagged for a closer look

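P4HTM encodes a transmembrane prolyl hydroxylase of the endoplasmic reticulum and was listed with the partners. It stood out because its Molidustat libraries moved in opposite directions at the 2 times. It held 1.84, 10.0 and 2.89 CPM in DMSO and 1.43, 0.00 and 1.73 CPM in Molidustat libraries at 24 h, and 1.76, 0.00 and 1.55 CPM against 5.62, 11.2 and 8.08 CPM at 48 h. All treated libraries were below the controls at 24 h (log2 fold change -2.25) and above them at 48 h (2.61). The log2 difference between these responses was 4.86 (edgeR unadjusted p = 0.00886, adjusted p = 0.728), which did not pass. With 1 library left out in turn, the 24 h value ran from -3.02 to -1.22 and the difference from 3.83 to 5.62, both smallest in size without DMSO 24 h replicate 2, the control at 10.0 CPM. It was chosen after its values were seen, and levels this low rest on few counts.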

How the results depend on the processing

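Of the 4 calls in the Molidustat comparisons, LOX and P4HA1 at 24 h held under all alternatives of test, scaling, filter, block and thinning, LOX at 48 h under all but the fit of each time point alone (adjusted p = 0.158), and P4HA2 at 48 h under all but that fit (0.108), the replicate block (0.0702) and thinning to the smallest library (0.0823). No member was called lower under any alternative. Throughout this section limma-voom was run with sample quality weights, so the test and the library weights changed together. Among the 10 genes, 4 were called higher at 24 h with DESeq2, limma-voom, no filter on low counts and each time point alone, and 0 to 4 when 1 library was left out. At 48 h the count was 4 with limma-voom with these weights, 3 with DESeq2 and with no filter on low counts (LOX, P4HA2 and PLOD2 in both), 0 with each time point alone, 1 with the replicate block, 1 after thinning and 0 to 2 with 1 library left out. P4HA1 at 48 h was called with limma-voom with sample quality weights (log2 fold change 1.47, adjusted p = 0.0018). The cause of these differences was not tested. Low counts (22, 5 and 105 over all 12 libraries) limit the precision for P4HA3, LOXL1 and LOXL2.

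Over all tested genes, 33 were called higher at 24 h, against 133 with DESeq2, 64 with limma-voom, 104 without a filter, 15 with at least 10 counts in every library, 57 with each time point alone and 20 to 111 with 1 library left out. None was lower, against 12 with DESeq2, 2 without a filter and 0 to 5 with 1 library left out. At 48 h, 30 were higher, against 174 with DESeq2, 244 with limma-voom, 154 without a filter, 14 with at least 10 counts in every library, 7 with each time point alone and 13 to 55 with 1 library left out. The 3 lower genes became 176 with DESeq2, 34 with limma-voom, 610 without a filter, 1 with at least 10 counts in every library, 0 with each time point alone, 0 with the replicate block and 0 to 272 with 1 library left out, the highest without DMSO 48 h replicate 1. The interaction gave 8 with DESeq2 and 321 without a filter. For 48 h against 24 h in DMSO, 0 were higher, against 38 with DESeq2, 1 with total counts, 387 without a filter and 0 to 1 with 1 library left out, and 1 was lower, against 8 with DESeq2, 2 with limma-voom, 2 with total counts, 13 without a filter, 0 with at least 10 counts in every library, 0 after thinning and 1 to 2 with 1 library left out. For 48 h against 24 h in Molidustat, 0 were higher, against 7 with DESeq2, 1 without a filter and 0 to 2 with 1 library left out, and 0 lower, against 5 with DESeq2, 1 with limma-voom, 3 without a filter and 0 to 2 with 1 library left out. Among HIF reference genes DESeq2 called 9 at 24 h and 6 at 48 h, and leaving out 1 library gave 2 to 8 and 1 to 3. Among the partners DESeq2 called 1 higher at 24 h, and leaving out 1 library gave 0 to 1 higher at 24 h and 0 to 1 lower at 48 h. Replicate numbers did not pair the libraries, and the replicate block, which called 30 genes higher at 24 h and 22 at 48 h over all tested genes, changed no other call among the 10 genes.

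The following log2 fold changes of the 10 genes took both signs. At 24 h P3H1 was 0.0754 after thinning. At 48 h PLOD3 was -0.0634 with limma-voom and -0.17 to 0.26 with 1 library left out, and LOXL2 -0.15 to 1.22. In the interaction, P4HA2 was -0.0165 with limma-voom, -0.0082 with the replicate block and -0.32 to 0.44 with 1 library left out, PLOD2 0.23 after thinning and -0.55 to 0.32, and LOX 0.13 with limma-voom, 0.21 with total counts, 0.0855 after thinning and -0.22 to 0.17. For 48 h against 24 h in DMSO, P4HA2 was -0.10 with total counts, -0.0768 after thinning and -0.28 to 0.48 with 1 library left out, LOX -0.0252 with total counts and -0.0210 to 0.37, PLOD1 0.17 with limma-voom and -0.52 to 0.28, PLOD2 0.24 and -0.56 to 0.33, PLOD3 0.0923 and -0.35 to 0.12, and P3H1 0.0371 and -0.50 to 0.0846. For 48 h against 24 h in Molidustat, LOXL2 was -0.36 with limma-voom, -0.42 with the replicate block and -0.80 to 0.57 with 1 library left out, and P4HA1 -0.27 to 0.0429.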

Other observations

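SERPINH1, the collagen chaperone HSP47, is one of the partners and was chosen here after its values were seen. It held 28.5, 32.4 and 27.1 CPM in DMSO and 38.0, 66.9 and 44.4 CPM in Molidustat libraries at 24 h, and 33.5, 33.0 and 51.1 against 91.0, 59.6 and 79.1 CPM at 48 h. The groups overlapped at neither time, and the log2 fold changes of 0.77 and 0.96 (standard error 0.33 for both, adjusted p = 0.872 and 0.233 by edgeR) did not pass. The 24 h value was 0.49 without Molidustat 24 h replicate 2, the library at 66.9 CPM.

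COL1A2, a chain of collagen I, was chosen in the same way. It held 0.689, 0.385 and 0.207 CPM in DMSO and 2.15, 1.58 and 2.88 CPM in Molidustat libraries at 24 h, and 1.63, 2.13 and 3.41 against 6.07, 3.86 and 5.26 CPM at 48 h. These groups did not overlap either, and neither log2 fold change (2.30 and 1.06) passed (adjusted p = 0.872 and 0.67 by edgeR). The DMSO libraries at 24 h held only 3, 1 and 1 counts. COL1A2 is also one of the fibroblast and stellate cell markers, whose summed level was higher in all Molidustat libraries at 48 h.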
